A study of Mus musculus with 9 samples.

Results

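The ATF4 and unfolded protein response genes are 34 genes that cells use when protein folding in the endoplasmic reticulum (ER), amino acid supply or protein synthesis is disturbed. They were taken by symbol from a fixed list, out of 19072 gene identifiers in the deposited tables, and all 34 were found. RNA from cultured 4T1-TGL cells, a BALB/c mouse breast cancer line, was sequenced in 9 libraries. The groups were a second Malat1 knockout line (KO2, genotype Malat1 KO), a first Malat1 knockout line (KO1, genotype Malat1 KO) and cells labelled WT (Ctrl), with 3 libraries each, all grown in DMEM/F12 medium without a further treatment named. Malat1 is a long nuclear RNA, and the study title places it in pyroptosis and in killing of metastatic cells by T cells. Each knockout group is 1 line, and the labels do not say whether the 3 libraries of a group came from separate cultures. The p-values therefore measure the spread between these libraries, which may be technical.

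As background, PERK (encoded by Eif2ak3) is a kinase in the ER membrane that phosphorylates the initiation factor eIF2, and related kinases do so when amino acids or heme are short. General translation then falls while translation of Atf4 rises, so that the amount of Atf4 RNA does not report the amount of ATF4 protein. ATF4 binds C/EBP-ATF composite elements and switches on amino acid synthesis, transport and stress genes. The ER membrane proteins IRE1 (Ern1) and ATF6 start the other arms of the unfolded protein response: IRE1 splices Xbp1 RNA, ATF6 is cleaved to a transcription factor, and both lead to transcription of ER chaperones and degradation factors. In the sections below, CPM are counts relative to the library size, scaled by TMM, and compare 1 gene between libraries. FPKM, which the authors scaled to transcript length and library size, compare levels between genes. Values of a group are given in the order of replicates 1, 2 and 3, which are called libraries 1, 2 and 3 of that group.

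Library totals lay between 30655924 and 35406395 expected counts. Malat1 itself had 119, 160.1 and 98.1 CPM in the KO2 libraries, 3.88, 3.69 and 2.63 CPM in the KO1 libraries and 510.3, 402 and 474 CPM in the Ctrl libraries, so that KO2 kept 27.2% and KO1 0.735% of the Ctrl mean. The keratins Krt8 and Krt18 of simple epithelium averaged 575 and 818 FPKM in KO2, 373 and 489.9 FPKM in KO1, and 215 and 249 FPKM in Ctrl. The epithelial genes Epcam, Cdh1 and Cldn4 were all at or below 0.29 FPKM on average in every group. The 5 fibroblast markers summed to between 23.5 and 24.0 FPKM in KO2, 44.9 and 47.4 FPKM in KO1, and 51.3 and 52.9 FPKM in Ctrl, of which Pdgfra averaged 20.5, 40.4 and 43.3 FPKM in the same groups. Dcn averaged 0.09, 3.37 and 7.9 FPKM, and Pi16 went the other way with 3.05, 2.66 and 0.72 FPKM. The 6 macrophage and neutrophil markers summed to 47.1 to 50.2 in KO2, 30.3 to 50.4 in KO1 and 25.1 to 43.4 FPKM in Ctrl. Only S100a8 and Cd68 among them averaged at least 1 FPKM in any group. S100a8 ran from 35.79 to 38.55, 6.38 to 21.4 and 7.54 to 31.22 FPKM in KO2, KO1 and Ctrl. Cd68 ran from 9.45 to 11.32, 23.61 to 31.67 and 12.13 to 17.55 FPKM in the same groups. Against Ctrl, Cd68 was called higher in KO1 (edgeR adjusted p = 0.000926) and lower in KO2 (0.0346), and S100a8 in neither. Lyz2 averaged 0.27 FPKM in KO2 and 0.307 FPKM in KO1. Adgre1 was at 0 in KO2 and KO1, and Lyz2 and S100a9 were at 0 in Ctrl. The 6 T and NK cell markers summed to at most 2.58 FPKM in any library, with Cd3g, Cd4 and Ncr1 at 0 in every library. Lck averaged 0.843, 2.12 and 1.89 FPKM in KO2, KO1 and Ctrl. The 4 endothelial markers reached at most 6.45 FPKM and the 4 adipocyte markers at most 3.2 FPKM in any library. Of these, Plvap averaged 0.713, 1.14 and 4.93 FPKM and Fabp4 0.09, 2.46 and 0.27 FPKM in KO2, KO1 and Ctrl. In bulk RNA, fewer cells of a type and less RNA per cell cannot be told apart, and the part of these markers in the results was not tested.

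Per transcript length, the levels of the 34 genes ranged widely. Hspa5 (the chaperone BiP) averaged 431 ± 19.4 FPKM in KO2, 442 ± 32.4 FPKM in KO1 and 536 ± 38.4 FPKM in Ctrl (SD, n = 3 each). Hsp90b1 (the chaperone GRP94) averaged 412 ± 10.3, 481 ± 25 and 429.6 ± 63.4 FPKM in KO2, KO1 and Ctrl, so that the SD ranges of the pair overlapped in KO2 and KO1 but not in Ctrl. These chaperones had the highest levels of the 34 genes in every group. Atf4 came next in Ctrl with 221 ± 11.8 FPKM, whose spread overlapped that of Nupr1 at 199 ± 34.4 FPKM. In KO2 the disulfide isomerase Pdia6, at 261 ± 7.52 FPKM, came next and Nupr1 stood below Asns, at 105 ± 12 FPKM. At the low end, Eif2ak3 averaged 4.24 FPKM in KO2, 4.33 in KO1 and 4.02 in Ctrl, above only Pycr1, Stc2 and Vldlr in each group. Vldlr, a lipoprotein receptor that ATF4 can induce, was listed in 1 library only (KO2 library 2, 2 counts) and did not pass the filter on low counts. The other 33 genes were tested, and the filter kept 13682 genes in all.

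**Figure D1:**
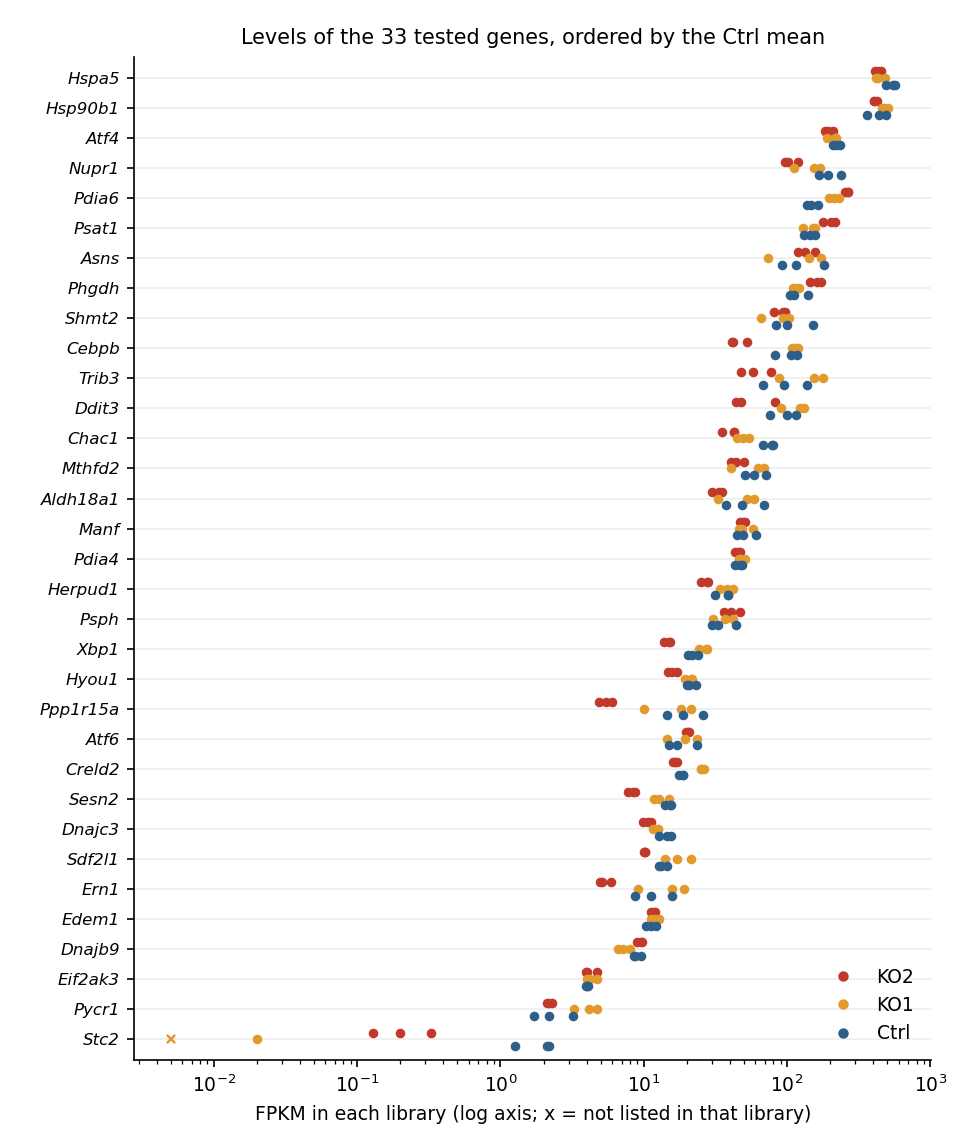
FPKM of the 33 tested genes in each of the 9 libraries on a log axis, with KO2, KO1 and Ctrl in separate rows per gene and genes ordered by the Ctrl mean. Hspa5 and Hsp90b1 lie at the top of all groups, and Stc2 at the bottom, with 2 KO1 libraries in which it was not listed.

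Before the groups are compared, the libraries within each group need describing, because most genes of the ATF4 axis moved together from library to library. Of the 17 tested genes of the ATF4 axis (transcription factors, regulators and secreted targets, amino acid and one-carbon enzymes), 15 were highest in KO2 library 1 and 16 lowest in KO2 library 2 among the KO2 libraries. Among the KO1 libraries, 15 of 17 were lowest in library 2, and among the Ctrl libraries 15 of 17 were highest in library 2 and 15 of 17 lowest in library 1. Over all 13682 tested genes, a given library was the highest or the lowest of its group for between 20.4% and 42.4% of genes. Asns, which makes asparagine, had 306, 235 and 263 CPM in the KO2 libraries, 315, 134 and 258 CPM in the KO1 libraries and 173, 342 and 213 CPM in the Ctrl libraries. Its Ctrl values thus spanned a wider range than the 3 group means, and all groups overlapped. The 8 amino acid and one-carbon enzymes kept this order without exception in KO2 and Ctrl. All 8 were highest in KO2 library 1 and lowest in KO2 library 2, and all 8 were highest in Ctrl library 2 and lowest in Ctrl library 1. In KO1 all 8 were lowest in library 2, and 7 were highest in library 1.

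The 16 tested ER genes shared the low KO2 library with the ATF4 axis, but less of its order in KO1 and Ctrl. In KO2 library 2, 11 of the 16 (68.8%) were lowest of their group, against 38.1% of all tested genes, with 5 of 8 chaperones and partners among them. In KO1 library 2, where the ATF4 axis was low, 3 of the 16 were lowest and 10 highest, and in Ctrl library 2, where it was high, 8 were lowest and 5 highest. All 4 genes of the sensor group (Ern1, Eif2ak3, Atf6 and Xbp1) were highest in Ctrl library 2 and lowest in Ctrl library 1, and 3 of the 4 were lowest in KO2 library 2 and 2 of the 4 in KO1 library 2. For Eif2ak3, whose Ctrl values ran only between 17.7 and 17.8 CPM, the libraries barely differed. The 4 genes of ER-associated degradation and small ER stress proteins (Herpud1, Edem1, Creld2 and Manf) were all highest in KO1 library 2 and all lowest in Ctrl library 2, the reverse of the ATF4 axis, while 3 of the 4 were lowest in KO2 library 2, as the ATF4 axis was. The coefficient of variation among replicates had a median of 10.6% in KO2, 17.9% in KO1 and 20.5% in Ctrl over the ATF4 axis. Over the 16 ER genes it was 4.6%, 7.62% and 8.59%, and over all tested genes 6.4%, 10.3% and 8.46%, in KO2, KO1 and Ctrl.

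Genes outside the 34 shared the order of libraries to different degrees. Of 20 cytosolic aminoacyl-tRNA synthetases, which charge transfer RNAs and of which many are known ATF4 targets, 18 were lowest in KO2 library 2, 17 lowest in KO1 library 2 and 17 highest in Ctrl library 2. Of 28 other ATF4 and integrated stress response genes, 20 were lowest in KO2 library 2, 24 lowest in KO1 library 2 and 24 lowest in Ctrl library 1. Of 37 other ER folding, translocation and degradation genes, 20 (54.1%) were lowest in KO2 library 2, 8 were lowest and 21 highest in KO1 library 2, and 18 were lowest and 15 highest in Ctrl library 2. Of 17 cytosolic and mitochondrial heat shock genes, 14 (82.4%) were lowest in KO2 library 2, 5 were lowest and 7 highest in KO1 library 2, and 7 were lowest and 6 highest in Ctrl library 2. The low values of KO2 library 2 were thus shared by lists outside the ATF4 targets. In each group, the library in which most ATF4 axis genes were highest also had the highest total count: 31689928 in KO2 library 1, 33748477 in KO1 library 1 and 35406395 in Ctrl library 2. The lowest total was in the library with the lowest ATF4 axis in KO2 (30655924, library 2) and in KO1 (31451889, library 2), but in Ctrl it was in library 3 (32282316), not in library 1 (32979106). The part of depth, culture or handling in this order was not tested.

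**Figure D2:**
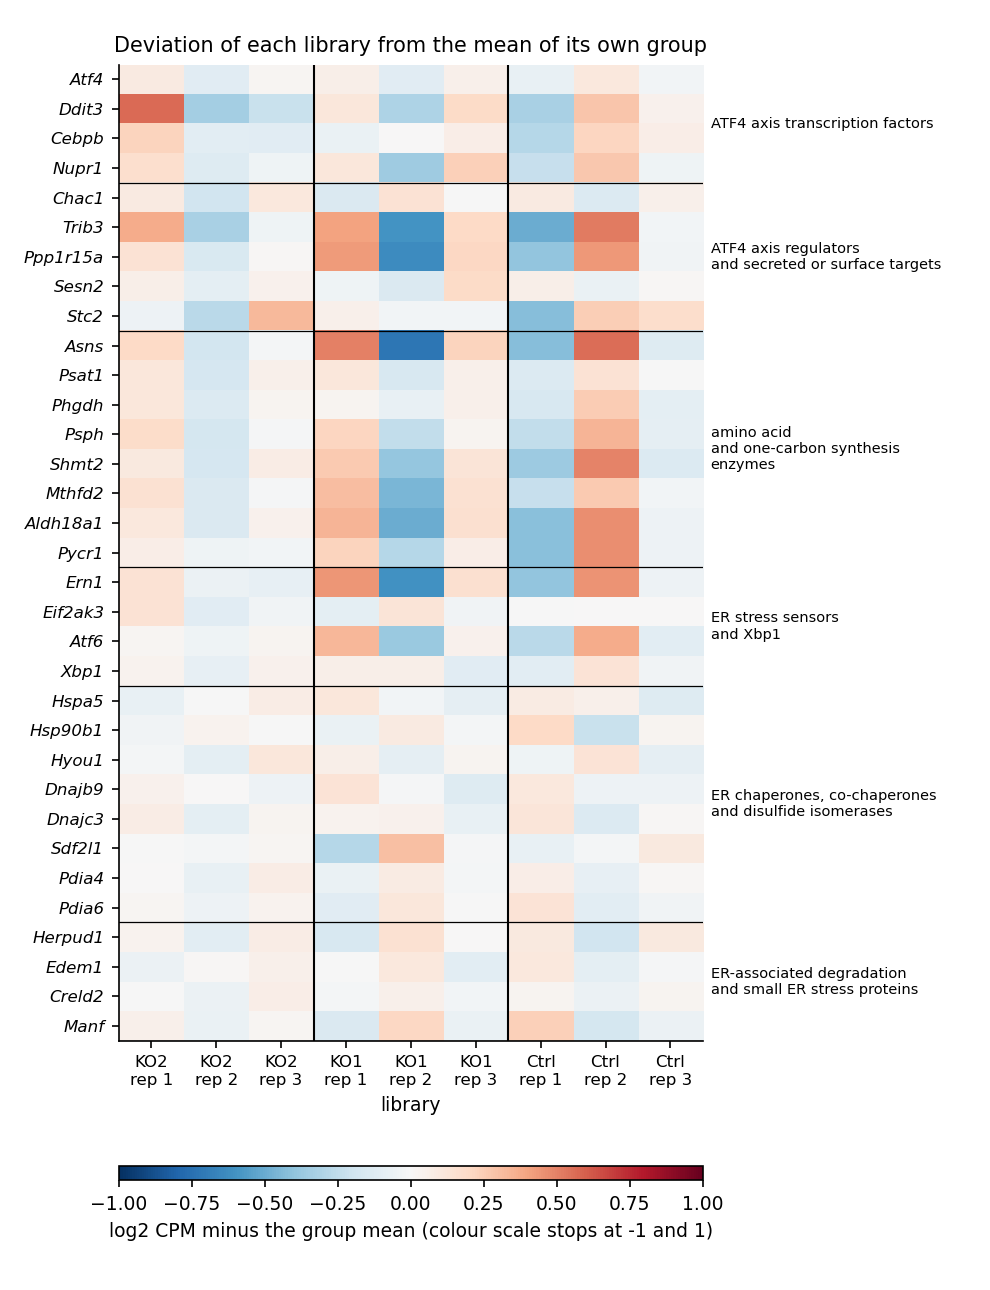
Deviation of each library (columns) from the mean of its own group, in log2 CPM, for each of the 33 tested genes (rows, by role). The ATF4 axis rows are mostly blue in KO1 library 2 and Ctrl library 1 and red in Ctrl library 2, and most chaperone rows are paler, with Sdf2l1 at -0.287 and 0.3 in KO1 replicates 1 and 2 among the exceptions.

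**Figure D3:**
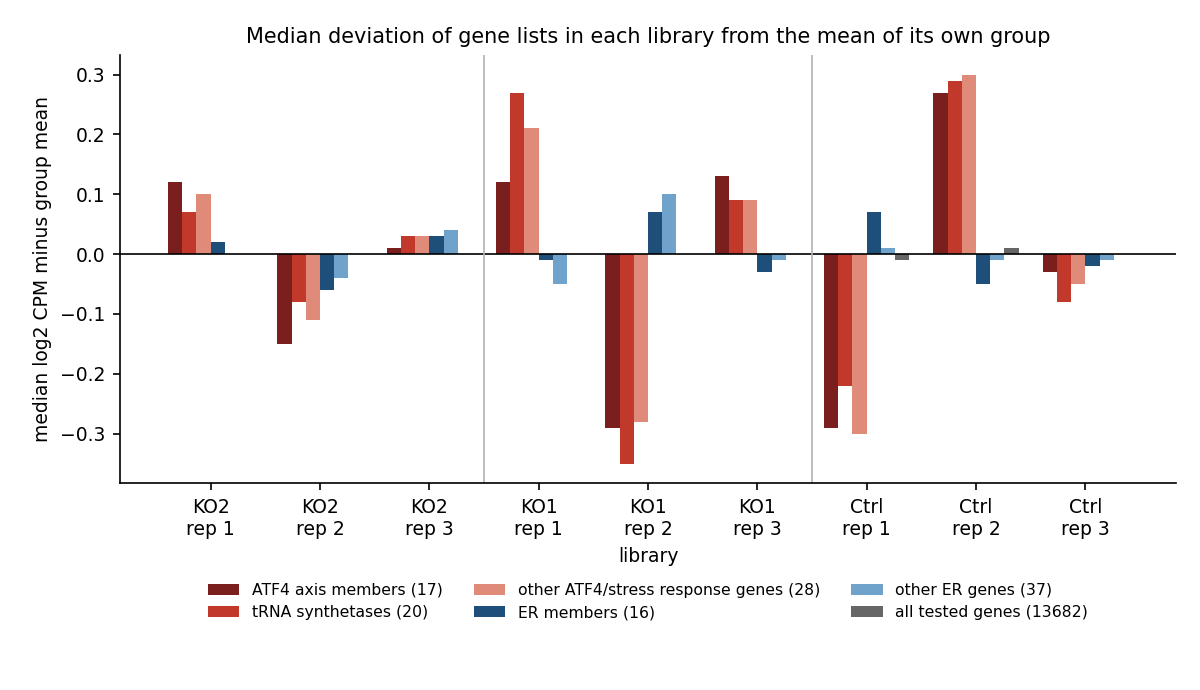
Median deviation in log2 CPM from the group mean, per library, for the ATF4 axis and ER members, 3 further gene lists and all tested genes. The 3 ATF4-related lists lie near -0.3 in KO1 library 2 and near 0.3 in Ctrl library 2, while the ER lists and all tested genes stay within 0.1 of 0.

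Comparing the groups, 15 of the 33 genes changed in KO2 against Ctrl at an edgeR adjusted p under 0.05, 3 higher and 12 lower. The background was 54.1% of all tested genes, with 24.6% called higher and 29.5% called lower. In KO1 against Ctrl, 9 changed, 3 higher and 6 lower, against a background of 30.5% (15.6% called higher and 14.9% called lower). In KO2 against KO1, 17 differed, 5 higher and 12 lower, against a background of 55.0% (25.5% called higher and 29.5% called lower). The mean of KO2 and KO1 against Ctrl gave 12 calls, 3 higher and 9 lower, against a background of 42.3% (18.4% called higher and 24.0% called lower). The shares of the 33 genes were 45.5%, 27.3%, 51.5% and 36.4% in these comparisons, each below its background, so the number called was not particular to these genes. By direction, the shares called lower lay above their backgrounds in each comparison, and the shares called higher lay below theirs. This skew was not tested. The median log2 fold change was -0.24 in KO2 against Ctrl, -0.00 in KO1 against Ctrl and -0.12 in KO2 against KO1, and that of all tested genes was -0.03, -0.00 and -0.02. The KO2 and KO1 comparisons with Ctrl share their Ctrl libraries. Without Ctrl library 1, the KO1 count was 5 (2 higher and 3 lower) in place of 9, and scaling by total counts gave 4 higher and 4 lower in KO1.

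**Figure D4:**
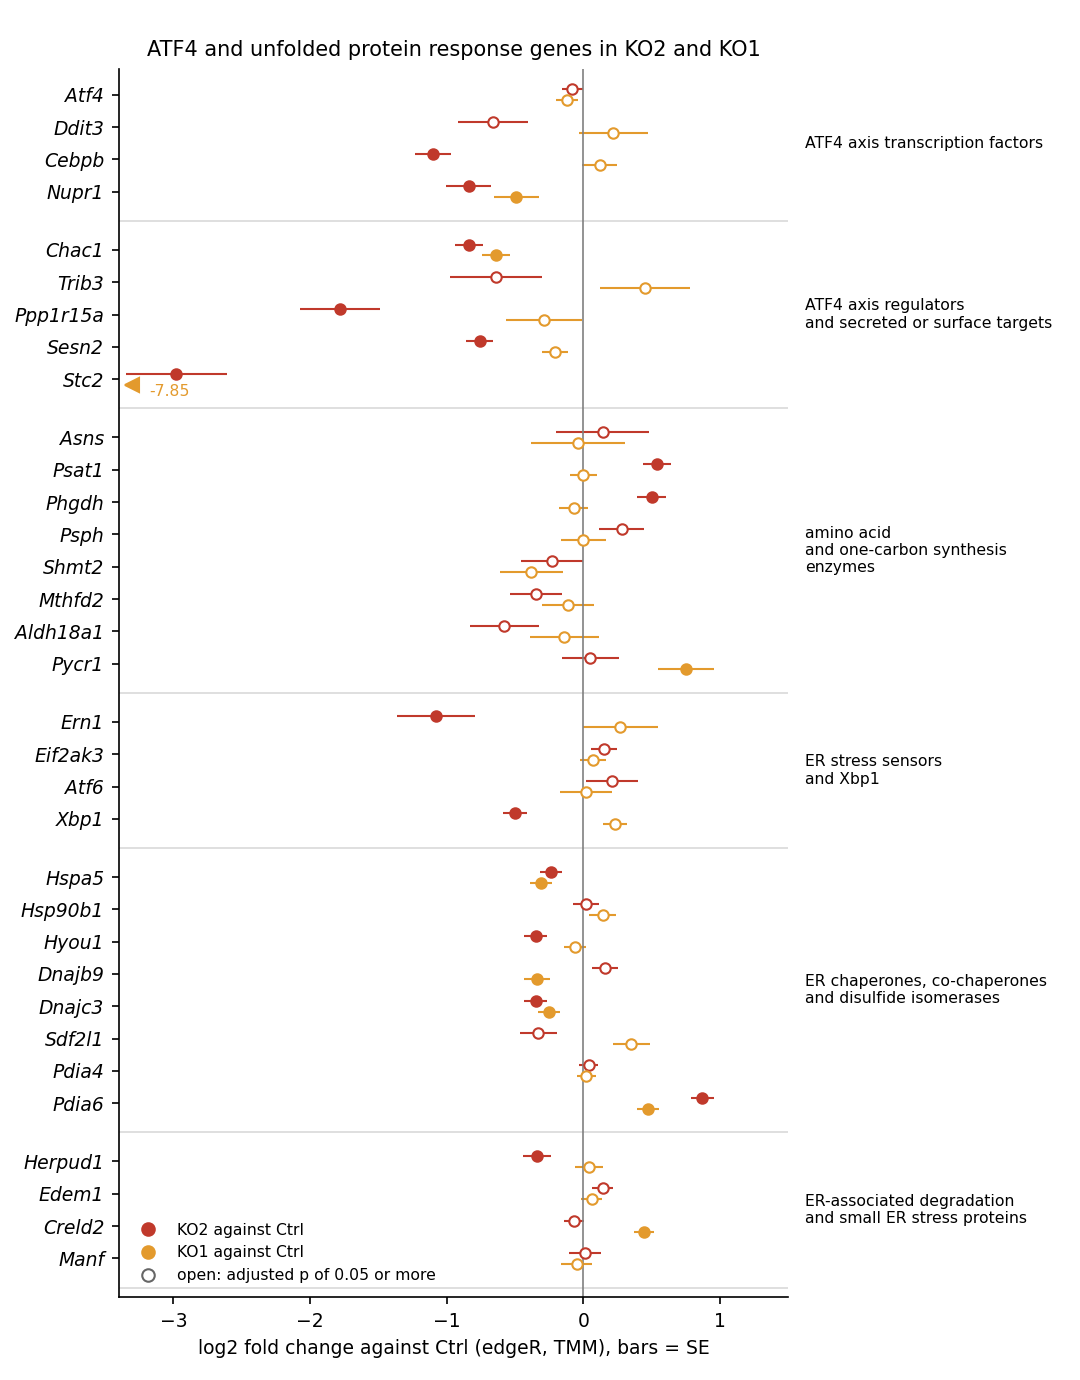
Log2 fold change (edgeR, TMM scaling, bars are SE) of the 33 tested genes in KO2 and in KO1 against Ctrl, grouped by role, with filled symbols at an adjusted p under 0.05. Stc2 and Ppp1r15a lie farthest to the left in KO2, Stc2 in KO1 lies off the scale at -7.85 (arrow), Atf4 lies near 0 in both lines, and Pdia6 lies to the right of 0 in both.

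Among the transcription factors, Atf4 RNA did not pass the test in either line, whereas Cebpb fell in KO2 and Nupr1 fell in both lines. Atf4 (chr15:80255184-80257545, GRCm38) had 331, 288 and 316 CPM in the KO2 libraries, 315, 279 and 313 CPM in the KO1 libraries and 312, 354 and 323 CPM in the Ctrl libraries. The 3 groups overlapped, and the log2 fold change was -0.08 ± 0.0791 (SE; edgeR adjusted p = 0.406) in KO2 against Ctrl and -0.12 ± 0.0791 (SE; edgeR adjusted p = 0.266) in KO1 against Ctrl.

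Cebpb (chr2:167688915-167690432) encodes C/EBP beta, a leucine zipper factor that can pair with ATF4. Cebpb had 80.3, 63.9 and 63.4 CPM in the KO2 libraries, 154, 161 and 169 CPM in the KO1 libraries and 120.4, 171 and 154 CPM in the Ctrl libraries. All KO2 libraries lay below all others, and KO1 overlapped Ctrl. The log2 fold change was -1.10 ± 0.129 (SE; edgeR adjusted p = 3.87e-05) in KO2 against Ctrl, -1.22 ± 0.13 (SE; edgeR adjusted p = 1.69e-05) in KO2 against KO1 and 0.12 ± 0.127 (SE; edgeR adjusted p = 0.51) in KO1 against Ctrl.

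Nupr1 (chr7:126623246-126625470), a small stress-induced chromatin protein, had 72.4, 58.7 and 62.5 CPM in the KO2 libraries, 87.6, 63.4 and 95.9 CPM in the KO1 libraries and 97.7, 138 and 111 CPM in the Ctrl libraries. Neither knockout line reached into the Ctrl range, and the lines overlapped each other. Nupr1 fell with a log2 fold change of -0.84 ± 0.166 (SE; edgeR adjusted p = 0.00174) in KO2 and -0.49 ± 0.165 (SE; edgeR adjusted p = 0.0465) in KO1. The KO1 call was lost when any 1 of Ctrl libraries 2 or 3, KO1 libraries 1 or 2 or the KO2 libraries was left out (adjusted p from 0.0511 to 0.146), and with the replicate block (0.0834), whereas the KO2 call held. In all, the KO1 call was lost in 13 of 20 alternatives, among them scaling by total counts (edgeR adjusted p = 0.0603). Between KO2 and KO1 the log2 difference was -0.35 ± 0.166 (SE; edgeR adjusted p = 0.0965), and without KO1 library 2 it was -0.49 (edgeR adjusted p = 0.0105).

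Ddit3 (chr10:127290793-127296291), which encodes CHOP, a factor of stress-induced cell death, had 71.7, 38.1 and 41.5 CPM in the KO2 libraries, 100.0, 74.3 and 105 CPM in the KO1 libraries and 62.8, 95.5 and 81.2 CPM in the Ctrl libraries. KO2 library 1 lay within the Ctrl range, while the other two KO2 libraries were below it, and all KO2 libraries were below all KO1 libraries. The log2 difference was -0.89 ± 0.258 (SE; edgeR adjusted p = 0.0172) in KO2 against KO1, -0.66 ± 0.258 (SE; edgeR adjusted p = 0.056) in KO2 against Ctrl and 0.22 ± 0.255 (SE; edgeR adjusted p = 0.546) in KO1 against Ctrl. The first of these lost its call without KO1 library 1 or 3 or KO2 library 2 or 3 (edgeR adjusted p from 0.054 to 0.0639). The KO2 difference from Ctrl passed the test without Ctrl library 1 (-0.81, edgeR adjusted p = 0.0369) or without KO2 library 1 (edgeR adjusted p = 0.00246). With all libraries kept, it also passed with scaling by total counts (edgeR adjusted p = 0.0381) and a filter of 1 CPM in 3 libraries (0.0489). Limma-voom and limma on log2(FPKM + 1) or log2(FPKM + 0.1) also called it (limma adjusted p = 0.0437, 0.023 and 0.0257). In all, 7 of 20 alternatives gave the call.

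The regulators and secreted targets included the largest decreases. Ppp1r15a (chr7:45522917-45526268) encodes GADD34, the phosphatase subunit that removes the phosphate from eIF2 and so ends the response. Ppp1r15a had 14.4, 11.6 and 13.1 CPM in the KO2 libraries, 47.2, 22.5 and 40.4 CPM in the KO1 libraries and 32.9, 58.9 and 42.5 CPM in the Ctrl libraries. Every KO2 library was below every other library, and the KO1 and Ctrl ranges overlapped, with KO1 library 2 below all Ctrl libraries. The log2 fold change was -1.78 ± 0.293 (SE; edgeR adjusted p = 0.00086) in KO2 against Ctrl, -1.49 ± 0.292 (SE; edgeR adjusted p = 0.00225) in KO2 against KO1 and -0.29 ± 0.277 (SE; edgeR adjusted p = 0.476) in KO1 against Ctrl.

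Chac1 (chr2:119351242-119354326), an enzyme that degrades glutathione, had 67.8, 55.8 and 68.5 CPM in the KO2 libraries, 66.4, 81 and 73.2 CPM in the KO1 libraries and 121, 104 and 118 CPM in the Ctrl libraries. Both knockout lines lay below Ctrl without overlap, and they overlapped each other. Chac1 fell with a log2 fold change of -0.84 ± 0.103 (SE; edgeR adjusted p = 4.69e-05) in KO2 and -0.64 ± 0.102 (SE; edgeR adjusted p = 0.000749) in KO1, and KO2 against KO1 gave -0.20 ± 0.103 (SE; edgeR adjusted p = 0.122). It was 1 of the few ATF4 axis genes that did not follow the order of libraries, with Ctrl library 2 the lowest of its group and KO1 library 2 the highest.

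Sesn2 (chr4:132492804-132510456) encodes sestrin 2, a leucine sensor that restrains the growth kinase mTORC1. Sesn2 had 23.8, 21.3 and 23.5 CPM in the KO2 libraries, 32.3, 30.1 and 38.2 CPM in the KO1 libraries and 40.4, 36.9 and 39 CPM in the Ctrl libraries. The KO2 libraries were below all others, and only KO1 library 3 reached the Ctrl range. Fitted log2 fold changes of Sesn2 were -0.76 ± 0.0978 (SE; edgeR adjusted p = 6.62e-05) in KO2 against Ctrl, -0.55 ± 0.0979 (SE; edgeR adjusted p = 0.00064) in KO2 against KO1 and -0.21 ± 0.0962 (SE; edgeR adjusted p = 0.127) in KO1 against Ctrl. Without KO1 library 3, the KO1 difference was -0.31 and passed the test (edgeR adjusted p = 0.0356).

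Trib3 (chr2:152337425-152344060), a pseudokinase that ATF4 and CHOP induce and that feeds back on them, had 161, 99.3 and 121 CPM in the KO2 libraries, 343, 172 and 298 CPM in the KO1 libraries and 135, 274 and 187 CPM in the Ctrl libraries. Spread within groups was wide, and both lines overlapped Ctrl. KO2 lay below KO1 in every library, with a log2 difference of -1.09 ± 0.336 (SE; edgeR adjusted p = 0.0246). That call was lost without KO1 library 1 or 3 or KO2 library 2 or 3 (edgeR adjusted p from 0.0648 to 0.095). Against Ctrl the values were -0.64 ± 0.334 (SE; edgeR adjusted p = 0.139) in KO2 and 0.45 ± 0.332 (SE; edgeR adjusted p = 0.352) in KO1.

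Stc2 (chr11:31359441-31370061), a secreted glycoprotein named stanniocalcin 2, was a low gene in all groups. Stc2 had 0.36, 0.237 and 0.612 CPM in the KO2 libraries, 0.0287, 0 and 0 CPM in the KO1 libraries and 2.19, 3.8 and 3.59 CPM in the Ctrl libraries. The 3 groups were apart, with 36 counts in all in KO2, 1 count in KO1 and 326 in Ctrl. The library-size adjusted ratio to Ctrl was 12.6% in KO2 (95% exact conditional interval 8.65% to 17.8%) and 0.313% in KO1 (0.0079% to 1.76%), where the intervals cover counting error only. The fitted difference from Ctrl was -2.98 ± 0.37 (SE; edgeR adjusted p = 5.15e-05) in KO2. In KO1, with a single count, the fitted value of -7.85 depends on the prior count, and the edgeR adjusted p was 4.27e-06. KO2 exceeded KO1 (edgeR adjusted p = 0.00047), and without counts, on log2(FPKM + 1), this difference did not pass the test (limma adjusted p = 0.074).

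**Figure D5:**
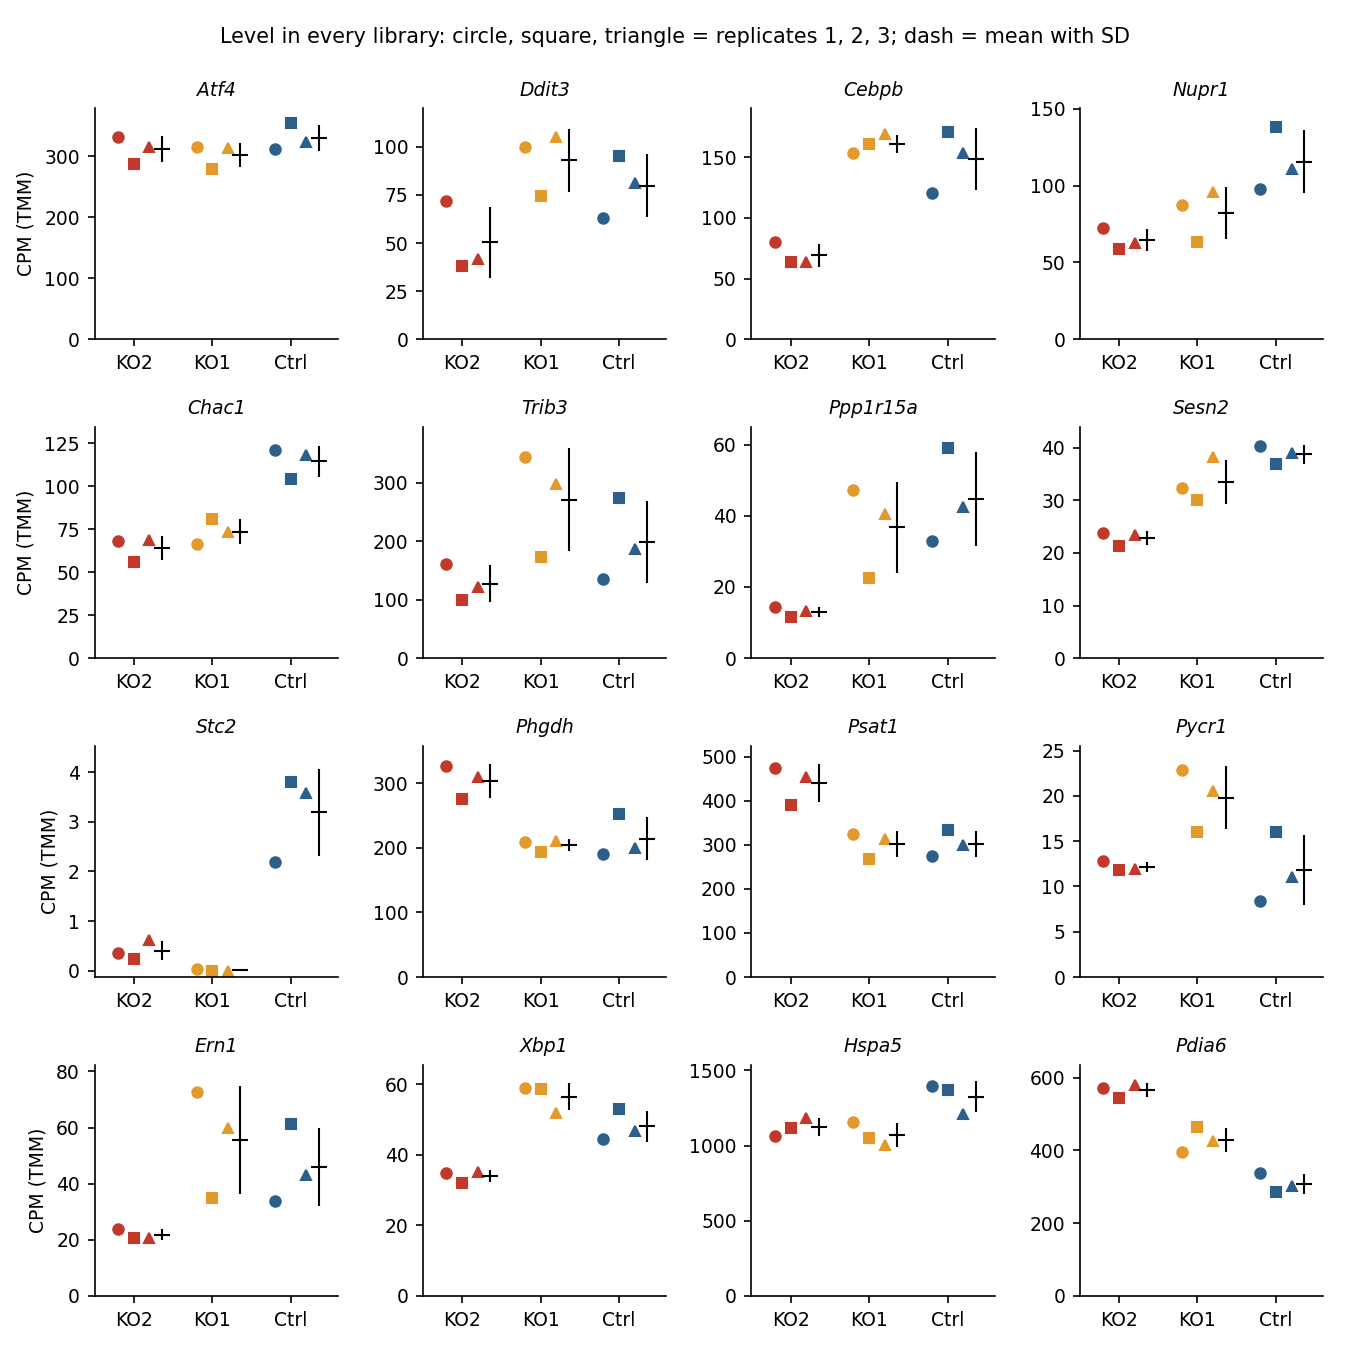
CPM (TMM scaling) of 16 of the genes in every library, with circle, square and triangle for replicates 1, 2 and 3 and a dash for the mean with SD. The KO2 points of Cebpb, Ppp1r15a, Sesn2, Ern1 and Xbp1 lie below all others, those of Phgdh, Psat1 and Pdia6 lie above all others, and Atf4 overlaps in all groups.

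Of the 8 amino acid and one-carbon enzymes, Psat1 and Phgdh rose in KO2, Pycr1 rose in KO1, and 5 did not pass the test in either line. The shares called, 25.0% in KO2 and 12.5% in KO1, were below the backgrounds of 54.1% and 30.5%. None was called lower, against 29.5% of all tested genes in KO2 and 14.9% in KO1, and without KO1 library 2 the KO2 count was 2 higher and 2 lower (Aldh18a1 and Mthfd2). The KO1 count was 0 without Ctrl library 1 or 3 or KO1 library 1 or 3. Phgdh and Psat1 catalyse the first steps of serine synthesis. Phgdh had 327, 275 and 309 CPM in the KO2 libraries, 209, 194 and 211 CPM in the KO1 libraries and 191, 253 and 199 CPM in the Ctrl libraries. Psat1 had 475, 391 and 454 CPM in the KO2 libraries, 324, 268 and 312 CPM in the KO1 libraries and 274, 333 and 299.8 CPM in the Ctrl libraries. For both, all KO2 libraries lay above all others and KO1 overlapped Ctrl. The log2 fold change in KO2 against Ctrl was 0.50 ± 0.107 (SE; edgeR adjusted p = 0.00225) for Phgdh and 0.54 ± 0.101 (SE; edgeR adjusted p = 0.00097) for Psat1, and in KO2 against KO1 0.57 ± 0.107 (SE; edgeR adjusted p = 0.000967) and 0.54 ± 0.101 (SE; edgeR adjusted p = 0.0009). Psph, which completes serine synthesis, had a log2 difference of 0.28 ± 0.163 (SE; edgeR adjusted p = 0.168) in KO2 against Ctrl, which passed the test without Ctrl library 2 (0.47, edgeR adjusted p = 0.0195).

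Pycr1 (chr11:120638998-120643748), the last enzyme of proline synthesis, had 12.8, 11.8 and 11.9 CPM in the KO2 libraries, 22.9, 16 and 20.5 CPM in the KO1 libraries and 8.38, 16 and 11 CPM in the Ctrl libraries. KO1 lay at or above the highest Ctrl library, and KO2 lay within the Ctrl range. Pycr1 rose in KO1 with a log2 fold change of 0.75 ± 0.206 (SE; edgeR adjusted p = 0.0187), and the log2 difference of KO2 from KO1 was -0.70 ± 0.207 (SE; edgeR adjusted p = 0.0145). The KO1 call was lost without Ctrl library 1 or 3 or KO1 library 1 or 3 (edgeR adjusted p from 0.0515 to 0.0672), and the KO2 against KO1 call without KO1 library 1 (0.0581). Aldh18a1, which makes the precursor of proline, had a log2 difference of -0.58 ± 0.253 (SE; edgeR adjusted p = 0.0816) in KO2 against Ctrl with no overlap of the libraries, and passed the test without Ctrl library 1 (-0.76, edgeR adjusted p = 0.0272) or KO1 library 2 (0.0487). Shmt2 averaged 214 ± 20.9, 192 ± 42.6 and 250.2 ± 81.1 CPM, and Mthfd2 95.2 ± 9.99, 112 ± 29.2 and 121 ± 20.8 CPM, in KO2, KO1 and Ctrl (SD, n = 3 each). Asns, Shmt2 and Mthfd2, the last 2 of mitochondrial one-carbon metabolism, had log2 differences from Ctrl between -0.35 (Mthfd2) and 0.14 (Asns) in KO2 and between -0.38 (Shmt2) and -0.04 (Asns) in KO1, and none passed the test. Mthfd2 passed it in KO2 without KO1 library 2 (edgeR adjusted p = 0.034).

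Promoters of the ATF4 axis were searched for the core of the C/EBP-ATF composite element, TGATGNAA on either strand, from 250 bases before to 50 after the start in RefSeq (GRCm38.p6). It was present in 6 of 18 ATF4 axis genes (33.3%: Nupr1, Chac1, Trib3, Vldlr, Asns and Pycr1), in 1 of 13 ER genes (Herpud1) and in 4.51% of the 27025 genes with at least 1 such window. The stretches of 4 of them are shown because these genes differ in outcome: Nupr1 and Chac1 fell in both lines, Pycr1 rose in KO1, and Asns did not pass the test. The KO1 calls of Nupr1 and Pycr1 were lost in several alternatives, as given above. Capitals mark the element, and in Nupr1 and Chac1 it lies on the opposite strand.
Nupr1: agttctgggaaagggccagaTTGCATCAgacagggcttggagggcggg
Chac1: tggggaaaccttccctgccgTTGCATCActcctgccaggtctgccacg
Pycr1: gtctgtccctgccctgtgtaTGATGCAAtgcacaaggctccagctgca
Asns: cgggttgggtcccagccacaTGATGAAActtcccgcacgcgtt
The stretches lie before the start of each gene, at chr7:126625553-126625600 (- strand), chr2:119351029-119351076 (+ strand), chr11:120643824-120643871 (- strand) and chr6:7693210-7693252 (- strand). A match is a description of letters only, and genes with and without one are found among those that fell.

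Among the ER stress sensors, Ern1 and Xbp1 fell in KO2 and Eif2ak3 and Atf6 did not pass the test in either line. Ern1 (chr11:106397620-106487796) encodes the kinase and nuclease IRE1 alpha. Ern1 had 24, 20.8 and 20.6 CPM in the KO2 libraries, 72.6, 34.8 and 59.7 CPM in the KO1 libraries and 33.8, 61.2 and 43.1 CPM in the Ctrl libraries. All KO2 libraries were below all others, and KO1 overlapped Ctrl. Ern1 gave a log2 fold change of -1.08 ± 0.285 (SE; edgeR adjusted p = 0.0113) in KO2 against Ctrl, -1.35 ± 0.286 (SE; edgeR adjusted p = 0.0035) in KO2 against KO1 and 0.27 ± 0.276 (SE; edgeR adjusted p = 0.495) in KO1 against Ctrl.

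Xbp1 (chr11:5520641-5525993), the RNA that IRE1 splices into the message for an active transcription factor, had 34.9, 32 and 35.1 CPM in the KO2 libraries, 58.9, 58.6 and 52 CPM in the KO1 libraries and 44.5, 52.9 and 46.9 CPM in the Ctrl libraries. KO2 was below all other libraries, and KO1 library 3 lay within the Ctrl range. Xbp1 fell in KO2 with a log2 fold change of -0.50 ± 0.0867 (SE; edgeR adjusted p = 0.000586) against Ctrl and -0.73 ± 0.0867 (SE; edgeR adjusted p = 3.37e-05) against KO1, and KO1 against Ctrl gave 0.23 ± 0.0856 (SE; edgeR adjusted p = 0.0611). The KO1 difference passed the test without Ctrl library 2 (0.31, edgeR adjusted p = 0.0234). The length that the authors' estimate gave to Xbp1 from its 2 listed transcripts was 2263.56, 2263.41 and 2262.29 bases in KO2, 2252.88, 2259.25 and 2259.71 in KO1, and 2261.51, 2257.65 and 2263.09 in Ctrl. KO2 thus lay at the upper end, overlapping Ctrl, and KO1 was below all KO2 libraries, over a range of 10.68 bases. The tables give no count per transcript, so the share of spliced Xbp1 RNA was not tested. Eif2ak3 averaged 19.6 ± 1.88, 18.6 ± 1.57 and 17.7 ± 0.0457 CPM, and Atf6 158 ± 3.98, 138 ± 33 and 137 ± 32.9 CPM, in KO2, KO1 and Ctrl (SD, n = 3 each). Eif2ak3 and Atf6 had log2 differences of 0.15 ± 0.0963 (SE; edgeR adjusted p = 0.22) and 0.21 ± 0.189 (SE; edgeR adjusted p = 0.375) in KO2, and of 0.07 ± 0.0962 (SE; edgeR adjusted p = 0.623) and 0.02 ± 0.189 (SE; edgeR adjusted p = 0.953) in KO1.

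The ER chaperones and their partners moved less and in both directions, and Pdia6 rose in both lines while Hspa5 and Dnajc3 fell in both. Pdia6 (chr12:17266589-17284785), a disulfide isomerase that also acts on IRE1, had 571, 544 and 580.4 CPM in the KO2 libraries, 396, 464 and 426 CPM in the KO1 libraries and 339, 286 and 301 CPM in the Ctrl libraries. The 3 groups did not overlap, with KO2 highest and Ctrl lowest. Pdia6 rose with a log2 fold change of 0.87 ± 0.0819 (SE; edgeR adjusted p = 5.72e-06) in KO2 and 0.47 ± 0.0815 (SE; edgeR adjusted p = 0.00116) in KO1, and KO2 exceeded KO1 by 0.40 ± 0.0814 (SE; edgeR adjusted p = 0.00162).

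Hspa5 (chr2:34772090-34776529) encodes BiP, the ER chaperone that holds the sensors inactive. Hspa5 had 1066, 1119 and 1185 CPM in the KO2 libraries, 1156, 1048 and 1004 CPM in the KO1 libraries and 1399, 1369 and 1208 CPM in the Ctrl libraries. Both lines were below Ctrl in every library, though KO2 library 3 came close to Ctrl library 3. The decrease was small, with a log2 fold change of -0.24 ± 0.0804 (SE; edgeR adjusted p = 0.0267) in KO2 and -0.31 ± 0.0805 (SE; edgeR adjusted p = 0.0131) in KO1. The KO2 call was lost without Ctrl library 1 or 2 or KO2 library 1 or 2 (edgeR adjusted p from 0.0711 to 0.106) and with the replicate block (0.0543). The KO1 call was lost without Ctrl library 1 (0.0514) or KO1 library 3 (0.0651).

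Dnajc3 (p58IPK, a co-chaperone of BiP) had 59.7, 53 and 57.9 CPM in the KO2 libraries, 62.6, 63 and 58 CPM in the KO1 libraries and 78.5, 65.9 and 73.1 CPM in the Ctrl libraries. Both lines lay below all Ctrl libraries and overlapped each other. Dnajc3 fell, with log2 fold changes of -0.35 ± 0.0818 (SE; edgeR adjusted p = 0.00389) in KO2 and -0.25 ± 0.0816 (SE; edgeR adjusted p = 0.0415) in KO1. The KO1 call was lost without Ctrl library 1 or 3, KO1 library 3, or KO2 library 1 or 3 (edgeR adjusted p from 0.0578 to 0.149) and with the replicate block (0.0597). In all, it was lost in 12 of 20 alternatives, among them upper quartile scaling (0.0597) and scaling by total counts (0.0669), whereas the KO2 call held. 

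Hyou1, a large ER chaperone, had 72.3, 68.5 and 79.1 CPM in the KO2 libraries, 93.4, 84.4 and 91.4 CPM in the KO1 libraries and 90.4, 102 and 87.4 CPM in the Ctrl libraries. Every KO2 library was below all others, and KO1 overlapped Ctrl. Hyou1 fell in KO2 with a log2 fold change of -0.35 ± 0.0826 (SE; edgeR adjusted p = 0.0042) against Ctrl, and the difference from KO1 of -0.29 ± 0.0826 (SE; edgeR adjusted p = 0.0111) lost its call without KO2 library 2 (0.0514). Dnajb9 (ERdj4, an IRE1 repressor) had 18.5, 18 and 17.2 CPM in the KO2 libraries, 14, 12.6 and 11.6 CPM in the KO1 libraries and 17.3, 15.5 and 15.5 CPM in the Ctrl libraries. KO1 was below all others, and KO2 overlapped Ctrl. Dnajb9 fell in KO1 with a log2 fold change of -0.34 ± 0.0969 (SE; edgeR adjusted p = 0.0218) against Ctrl, and KO2 exceeded KO1 by 0.49 ± 0.0971 (SE; edgeR adjusted p = 0.00133). The KO1 call of Dnajb9 was lost without Ctrl library 1 (0.0812) or KO1 library 3 (0.0982). Hsp90b1 averaged 1167 ± 27.5, 1266 ± 70.4 and 1153 ± 167 CPM, and the isomerase Pdia4 121 ± 5.93, 119.7 ± 6.44 and 118 ± 6.07 CPM, in KO2, KO1 and Ctrl (SD, n = 3 each). They had log2 differences from Ctrl of 0.02 and 0.04 in KO2 and of 0.14 and 0.02 in KO1, and neither passed the test.

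Sdf2l1 (chr16:17130138-17132383), a partner of BiP and ERdj co-chaperones, had 11.2, 11.2 and 11.5 CPM in the KO2 libraries, 14.5, 22 and 17.6 CPM in the KO1 libraries and 13.4, 14 and 15.1 CPM in the Ctrl libraries. The KO2 libraries lay below all others, and KO1 overlapped Ctrl. The log2 difference was -0.68 ± 0.136 (SE; edgeR adjusted p = 0.00151) in KO2 against KO1, -0.33 ± 0.137 (SE; edgeR adjusted p = 0.063) in KO2 against Ctrl and 0.35 ± 0.134 (SE; edgeR adjusted p = 0.0712) in KO1 against Ctrl. The KO2 difference from Ctrl passed the test without KO1 library 1 (0.0203) or 2 (0.0214). With all libraries kept, it also passed with scaling by total counts (-0.41, edgeR adjusted p = 0.0265) and with limma on log2(FPKM + 1) or log2(FPKM + 0.1) (limma adjusted p = 0.0259 and 0.0218). The KO1 difference passed it without KO1 library 1 (0.49, edgeR adjusted p = 0.00793).

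In the last group, Creld2 rose in KO1 and Herpud1 fell in KO2. Creld2, a secreted ER stress protein, had 22.6, 21.8 and 23.8 CPM in the KO2 libraries, 31.8, 33.5 and 31.7 CPM in the KO1 libraries and 24.3, 22.9 and 24.4 CPM in the Ctrl libraries. All KO1 libraries were above all others, and KO2 overlapped Ctrl. Its log2 fold change was 0.44 ± 0.0735 (SE; edgeR adjusted p = 0.000982) in KO1 against Ctrl, -0.51 ± 0.0739 (SE; edgeR adjusted p = 0.000159) in KO2 against KO1 and -0.07 ± 0.0742 (SE; edgeR adjusted p = 0.445) in KO2 against Ctrl. Herpud1, a scaffold of ER-associated degradation, had 52.6, 47.8 and 54.1 CPM in the KO2 libraries, 59.7, 74.5 and 67.2 CPM in the KO1 libraries and 69.6, 56.7 and 69.5 CPM in the Ctrl libraries. All KO2 libraries were below all others, and KO1 overlapped Ctrl. Its log2 fold change was -0.34 ± 0.104 (SE; edgeR adjusted p = 0.0169) in KO2 against Ctrl, a call lost without Ctrl library 1 or 3 or KO2 library 2 (edgeR adjusted p from 0.0616 to 0.0706), and -0.38 ± 0.104 (SE; edgeR adjusted p = 0.00929) in KO2 against KO1. Edem1, which hands misfolded glycoproteins to degradation, averaged 71.2 ± 2.75, 67.4 ± 4.91 and 64.8 ± 4.7 CPM, and Manf, a secreted ER protein, 111 ± 4.66, 106 ± 13.8 and 110.2 ± 16.9 CPM, in KO2, KO1 and Ctrl (SD, n = 3 each). Edem1 and Manf had log2 differences from Ctrl of 0.14 and 0.01 in KO2 and of 0.06 and -0.05 in KO1, and neither passed the test.

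The ER stress response element, here CCAAT, 9 further bases and CCACG on either strand, is the element through which ATF6 and XBP1 are known to act on chaperone genes. It was present in the windows of 5 of the 31 genes that have one (16.1%: Hspa5, Hsp90b1, Dnajc3, Pdia6 and Creld2), against 0.137% of all genes with a window. None of the 18 ATF4 axis genes had it. The related element II (ATTGG, 1 base, CCACG) was present in Herpud1, against 0.0444% of all genes, and the core of the unfolded protein response element, TGACGTGG, was present in none of the 31 and in 0.714% of all genes. The stretches are shown because genes with the same element went different ways: Pdia6 rose in both lines, Hspa5 and Dnajc3 fell in both, and Creld2 rose in KO1. Both calls of Hspa5 and the KO1 call of Dnajc3 were lost in some alternatives, as given above. Capitals mark the elements, on the opposite strand in Creld2, and in Herpud1 first the C/EBP-ATF core on the opposite strand and then element II.
Pdia6: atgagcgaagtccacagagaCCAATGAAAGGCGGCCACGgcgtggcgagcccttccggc
Hspa5: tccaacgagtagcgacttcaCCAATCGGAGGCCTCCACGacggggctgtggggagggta
Dnajc3: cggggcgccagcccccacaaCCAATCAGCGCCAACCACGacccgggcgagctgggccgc
Creld2: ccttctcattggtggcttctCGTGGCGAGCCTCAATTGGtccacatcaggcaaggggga
Herpud1: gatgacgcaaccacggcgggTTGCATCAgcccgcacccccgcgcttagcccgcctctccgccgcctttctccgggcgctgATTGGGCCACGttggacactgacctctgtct
They lie before the start of each gene, at chr12:17266471-17266529 (+ strand), chr2:34772005-34772063 (+ strand), chr14:118937807-118937865 (+ strand), chr15:88819500-88819558 (+ strand) and chr8:94386297-94386407 (+ strand).

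Other genes of the pathways give the surroundings of the 34. Of 28 tested ATF4 and integrated stress response genes outside the 34, 10 fell and 0 rose in KO2 against Ctrl, 4 fell and 1 rose in KO1 against Ctrl, and 6 were lower and 1 higher in KO2 against KO1. Their median log2 differences were -0.27, -0.04 and -0.14. The shares called in either direction, 35.7%, 17.9% and 25.0%, lay below the backgrounds given above. In KO2 against Ctrl every call was lower, so that 35.7% were called lower, against 29.5% of all tested genes. None was called higher, against 24.6%. This skew was not tested. Atf3, a stress-induced factor of the ATF family, had 3.37, 2.44 and 2.21 CPM in the KO2 libraries, 60.8, 23.6 and 43.8 CPM in the KO1 libraries and 12, 24.6 and 13.8 CPM in the Ctrl libraries. KO2 was below all other libraries, and KO1 overlapped Ctrl through KO1 library 2. Against Ctrl, the log2 fold change of Atf3 was -2.65 ± 0.436 (SE; edgeR adjusted p = 0.000996) in KO2 and 1.35 ± 0.371 (SE; edgeR adjusted p = 0.0251) in KO1. The KO1 call of Atf3 was lost without Ctrl library 1 or 3 or KO1 library 1 or 3 (edgeR adjusted p from 0.0603 to 0.084) and with the replicate block (0.0527). The KO1 count of 5 became 3 without Ctrl library 3, KO1 library 1 or KO1 library 3, and the KO2 against KO1 count of 7 became 11 without KO1 library 2.

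Ddit4 (REDD1, an mTORC1 inhibitor) fell in both lines with log2 fold changes of -0.83 ± 0.0949 (SE; edgeR adjusted p = 2.72e-05) in KO2 and -0.73 ± 0.0945 (SE; edgeR adjusted p = 0.000171) in KO1. Eif2ak1, the heme-regulated eIF2 kinase, also fell in both, with -0.60 ± 0.0787 (SE; edgeR adjusted p = 7.6e-05) in KO2 and -0.30 ± 0.078 (SE; edgeR adjusted p = 0.0129) in KO1. Cebpg, a C/EBP partner of ATF4, fell in KO2 with a log2 fold change of -0.81 ± 0.213 (SE; edgeR adjusted p = 0.0102), and its KO1 difference was 0.17 ± 0.211 (SE; edgeR adjusted p = 0.593). Tnfrsf10b, a death receptor that CHOP induces, fell in KO2 with a log2 fold change of -1.09 ± 0.112 (SE; edgeR adjusted p = 1.19e-05), and its KO1 difference was -0.06 ± 0.109 (SE; edgeR adjusted p = 0.724). Eif2s1, the eIF2 subunit that the kinases phosphorylate, fell in KO1 with a log2 fold change of -0.61 ± 0.0885 (SE; edgeR adjusted p = 0.000398), and KO2 exceeded KO1 by 0.49 ± 0.0885 (SE; edgeR adjusted p = 0.000747).

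Of 20 tRNA synthetases, 2 rose in KO2 against Ctrl and 1 fell in KO1. The log2 fold change of Qars was 0.31 ± 0.0939 (SE; edgeR adjusted p = 0.0153) and that of Hars 0.30 ± 0.0722 (SE; edgeR adjusted p = 0.00483) in KO2, and that of Wars was -0.87 ± 0.284 (SE; edgeR adjusted p = 0.0492) in KO1. In KO2 against KO1, 4 were higher and 1 lower. Hars, Nars and Cars were higher by 0.47, 0.51 and 0.34 on the log2 scale (edgeR adjusted p = 0.000256, 0.0325 and 0.0268), and the log2 difference of Yars was -0.57 ± 0.206 (SE; edgeR adjusted p = 0.0417). Qars was higher by 0.25 (edgeR adjusted p = 0.0447), a call lost in 13 of 20 alternatives. These shares, at most 25.0%, also lay below the backgrounds. Most of these calls were lost in at least 1 leave-one-out fit, while both calls of Hars held in all 20 alternatives. Wars lay near the threshold. Leaving out a KO2 library, which is outside its comparison, left its KO1 value at -0.87 but gave an edgeR adjusted p from 0.0608 to 0.0729. The KO2 count became 4 without Ctrl library 1, 5 without KO1 library 2 and 1 without KO2 library 3. The KO1 count became 2 without KO1 library 1 and 0 without Ctrl library 2 or 3, KO1 library 2 or 3 or any KO2 library. The KO2 against KO1 count fell to between 1 and 3 without Ctrl library 3, KO1 library 1 or 3 or any KO2 library. Among single genes, Wars lost its call in the same leave-one-out fits in which the KO1 count was 0 (0.0545 to 0.13), and Qars lost its KO2 against Ctrl call without KO2 library 3 (0.0553). In KO2 against KO1, Nars lost its call without KO1 library 3 or any KO2 library (0.0564 to 0.0949), Cars without KO2 library 1 (0.1), and Yars without Ctrl library 3, KO1 library 1 or 3 or any KO2 library (0.0549 to 0.157).

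Of 37 other ER folding, translocation and degradation genes, 6 rose and 5 fell in KO2 against Ctrl (29.7%), 2 rose and 5 fell in KO1 against Ctrl (18.9%), and 9 were higher and 5 lower in KO2 against KO1 (37.8%). Each share lay below its background over all tested genes, which was 54.1%, 30.5% and 55.0% in this order. Ero1l, the oxidase that recharges disulfide isomerases and that hypoxia also induces, fell in KO2 with a log2 fold change of -1.28 ± 0.274 (SE; edgeR adjusted p = 0.00409), and its KO1 difference was -0.17 ± 0.269 (SE; edgeR adjusted p = 0.684). Its paralog Ero1lb fell in both lines with log2 fold changes of -0.69 ± 0.11 (SE; edgeR adjusted p = 0.000321) in KO2 and -0.46 ± 0.108 (SE; edgeR adjusted p = 0.00819) in KO1. P4hb, the main disulfide isomerase, rose in both lines with log2 fold changes of 0.25 ± 0.0915 (SE; edgeR adjusted p = 0.041) in KO2 and 0.50 ± 0.0916 (SE; edgeR adjusted p = 0.00177) in KO1. The KO2 call of P4hb was lost without Ctrl library 1 or 2, KO1 library 3 or any KO2 library (0.0585 to 0.128). Sil1, which recharges BiP with ATP, rose in KO2 with a log2 fold change of 0.66 ± 0.126 (SE; edgeR adjusted p = 0.00114). Sec61g, a subunit of the translocation channel, was higher in KO2 than in KO1 by 0.52 ± 0.127 (SE; edgeR adjusted p = 0.00494). Edem3, of glycoprotein degradation, fell in KO2 with a log2 fold change of -0.61 ± 0.117 (SE; edgeR adjusted p = 0.0012). Atf6b, a relative of Atf6, and Derl2, of the degradation channel, fell in KO1 with log2 fold changes of -0.59 ± 0.0953 (SE; edgeR adjusted p = 0.000813) and -0.47 ± 0.0724 (SE; edgeR adjusted p = 0.000594). The KO2 against KO1 count of 14 was 8, 9 and 9 without KO1 library 3, KO2 library 1 and KO2 library 3.

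Of 17 cytosolic and mitochondrial heat shock genes, a folding response outside the ER, 4 rose and 2 fell in KO2 against Ctrl (35.3%), 1 rose and 5 fell in KO1 against Ctrl (35.3%), and 7 were higher and 2 lower in KO2 against KO1 (52.9%). The backgrounds over all tested genes were 54.1%, 30.5% and 55.0% in this order. The share called in either direction thus lay below the background in KO2 against Ctrl and near it in the other comparisons. By direction, the 5 of 17 that fell in KO1 lay above the 14.9% of all tested genes called lower there. The 7 of 17 higher in KO2 than in KO1 lay above the 25.5% called higher there. The other directions lay below their backgrounds, and this skew was not tested. Hsph1 (HSP110) had 293, 278 and 304 CPM in the KO2 libraries, 129, 117 and 119.8 CPM in the KO1 libraries and 223, 188 and 184 CPM in the Ctrl libraries. The 3 groups were apart, with KO2 highest and KO1 lowest. Its log2 fold change was 0.56 ± 0.0834 (SE; edgeR adjusted p = 0.000213) in KO2 and -0.70 ± 0.0839 (SE; edgeR adjusted p = 0.000101) in KO1. Hspa8, the constitutive cytosolic HSP70, rose in KO2 with a log2 fold change of 0.88 ± 0.124 (SE; edgeR adjusted p = 0.000142), and Hsp90aa1 (HSP90 alpha) fell in KO1 with a log2 fold change of -0.60 ± 0.082 (SE; edgeR adjusted p = 0.000267). Bag3, an HSP70 co-chaperone, fell in KO1 with a log2 fold change of -0.45 ± 0.0894 (SE; edgeR adjusted p = 0.00298). Hspb1 (HSP25) fell in KO2 with a log2 fold change of -1.20 ± 0.141 (SE; edgeR adjusted p = 3.27e-05) and rose in KO1 with a log2 fold change of 0.54 ± 0.13 (SE; edgeR adjusted p = 0.0088). Hspa1b rose in KO2 with a log2 fold change of 1.45 ± 0.297 (SE; edgeR adjusted p = 0.00191), but its copy Hspa1a is nearly identical and did not pass the filter, so the split of reads between them is uncertain.

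Over the 102 tested genes of these 4 lists together, 12 rose and 17 fell in KO2 against Ctrl (28.4%), 4 rose and 15 fell in KO1 against Ctrl (18.6%), and 21 were higher and 14 lower in KO2 against KO1 (34.3%). These shares lay below the backgrounds of 54.1%, 30.5% and 55.0%. Scaling by total counts lowered the median of all genes in KO2 against KO1 by 0.106 on the log2 scale, and gave 13 higher and 26 lower there and 10 higher and 28 lower in KO2 against Ctrl. In the mean of KO2 and KO1 against Ctrl, Nupr1, Cebpb, Chac1, Ppp1r15a, Sesn2, Stc2, Hspa5, Hyou1 and Dnajc3 were called lower and Psat1, Pdia6 and Creld2 higher. In the mean, Psat1 lost its call without Ctrl library 1 or 3, KO1 library 3 or KO2 library 1 or 3 (edgeR adjusted p from 0.0604 to 0.135), Hyou1 without Ctrl library 1 or 2, KO1 library 2 or 3 or KO2 library 1 or 2 (0.0591 to 0.187), and Creld2 without any Ctrl library, KO1 library 2 or 3 or KO2 library 1 or 3 (0.0516 to 0.129). Without Ctrl library 2, Phgdh and Pycr1 passed the test in the mean (0.00572 and 0.00617). Over the 4 lists the mean gave 29 calls (28.4%, against a background of 42.3%), 7 higher and 22 lower, and 17 without Ctrl library 3. The lines differed within the mean of the members. Cebpb, Ppp1r15a, Sesn2, Psat1 and Hyou1 passed the test in KO2 only, and Creld2 in KO1 only. Their KO2 against KO1 differences, given above, passed it as well, that of Hyou1 not without KO2 library 2.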

How the data were processed

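Total RNA of the 9 libraries was sequenced, and per the submitters' processing notes HISAT and RSEM were used with mm10 and GRCm38. The authors deposited, per library, an expected count, an FPKM value and a length per gene, per the file headers. Whether strand was used in counting is not given in the sources used here, so overlapping and antisense genes cannot be told apart. Expected counts were rounded to whole numbers, and genes with low counts were dropped with filterByExpr by group. The 9 libraries were fitted together with edgeR 4.0.16 (R 4.3.3; TMM, robust quasi-likelihood F test, 6 residual degrees of freedom, common biological coefficient of variation 11.1%). Genes were called at a Benjamini-Hochberg adjusted p under 0.05 over all 13682 tested genes. SE is the log2 fold change divided by the square root of F. In simulated data for KO1 against Ctrl, with 13501 genes tested, the fit recovered 28% of 50 genes changed 1.25-fold. It recovered 66% of 50 changed 1.5-fold and 96% of 50 changed 2-fold. Only these genes and 50 changed 3-fold differed, all drawn from genes with a mean of at least 5 CPM. In the data, 30.5% of tested genes were called in KO1 against Ctrl. With few changed genes the adjusted p is harder to pass, so this recovery does not give that of the tests above. Recovery for genes that move together from library to library, as most of the ATF4 axis did, was not tested. Deviations within a group are log2(CPM + 0.5).

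The members and the lists were chosen with earlier results of these data known. A member called with a change of at least 1.5-fold in a pairwise comparison was given per library, and others were added to show the pattern. In each of the 4 further lists and each comparison, up to 4 called genes with the largest change and at least 5 CPM were named. P4hb in KO2, Eif2ak1 in KO2, Qars in KO2 against KO1 and the differences that did not pass the test are given beside them. Alternatives were other scalings and filters, DESeq2 1.42.0, limma 3.58.1 (voom, and log2 of FPKM + 1 or + 0.1), a replicate block, only the groups compared, and leaving out each library. Promoter windows came from RefSeq (GRCm38.p6) and matched 31 of the 34 genes. Same-numbered libraries of different groups had deviations that correlated at -0.34 to 0.05, and differently numbered ones at -0.17 to 0.34. Same-numbered libraries thus showed no clear shared deviation. Whether they were cultured or handled together cannot be told from these correlations.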

Additional observations from a re-analysis of the deposited data

Results flagged for a closer look

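Atf3 was called lower in KO2 and higher in KO1 against the same Ctrl libraries, and the test of KO2 against KO1 gave a log2 difference of -3.99 (edgeR adjusted p = 8.99e-05). Hsph1 was called higher in KO2 and lower in KO1, with a log2 difference between the lines of 1.26 (edgeR adjusted p = 3.57e-07). Hspb1 was called lower in KO2 and higher in KO1, with a log2 difference between the lines of -1.74 (edgeR adjusted p = 1.49e-06). None of the 33 tested members of the ATF4 and unfolded protein response genes was called in opposite directions in the 2 lines.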

How the results depend on the processing

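The counts of the 34 genes called were 15 in KO2 against Ctrl, 9 in KO1 against Ctrl, 17 in KO2 against KO1 and 12 in the mean of both lines against Ctrl. Leaving out 1 library gave 13 to 18, 5 to 9, 14 to 20 and 9 to 12, and the 5 came without Ctrl replicate 1. With a replicate block the counts were 14, 7, 17 and 9, though same-numbered libraries of different groups showed no clear shared deviation. A change of at least 2-fold left 4, 1, 5 and 2, and an adjusted p under 0.01 left 4 in KO1. In the 102 genes of the further lists, leaving out 1 library gave 24 to 35 in KO2 against Ctrl, 14 to 21 in KO1 against Ctrl, 25 to 40 in KO2 against KO1 and 17 to 32 in the mean, and the replicate block gave 26, 16, 27 and 21. At least 2-fold left 5, 1, 7 and 0 of them, and an adjusted p under 0.01 left 22 in KO2 against KO1 and 14 in the mean. These fewer calls follow from the stricter thresholds. Upper quartile scaling gave 4 higher and 5 lower members in KO1 and total counts 4 and 4. Of single members' fold changes under the alternatives, 634 of 660 in KO2, 618 of 660 in KO1, 637 of 659 in KO2 against KO1 and 599 of 627 in the mean stayed on the same side of the threshold, 18, 8, 10 and 3 gained a call, 8, 34, 12 and 25 lost one, and 0 reversed. The closing bases of the ER stress response element alone, CCACG, were in 80.6% of member windows and 35.5% of all genes with a window, against 16.1% and 0.137% for the whole element. Genes with few counts, here Stc2 and Vldlr, are limited by depth. With 3 libraries a group and a median replicate coefficient of variation of 17.9% in KO1 and 20.5% in Ctrl over the ATF4 axis, the spread limits which small changes were detectable there.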
